A study of Mus musculus with 30 samples.

Results

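The genes described here encode the complement and coagulation proteins that the liver releases into plasma. They were taken by symbol from a list of 41, and 40 of them had values among the 14173 genes of the count table. Of these 40, 19 belong to complement, 13 to coagulation and 8 to the inhibitors of coagulation and the proteins of fibrinolysis. *Klkb1*, which encodes plasma prekallikrein, was not analysed here. All 40 passed the filter on low counts in every comparison.

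Complement is a cascade of plasma proteases that marks surfaces for removal. It is started by mannose-binding lectins or by antibody, passes through the central component C3, and ends in a pore built from C5b to C9. Coagulation is a second cascade of zymogens that ends in thrombin and fibrin, and it is held in check by serpins and by the protein C pathway, while plasmin dissolves the clot. Hepatocytes make most of the circulating proteins of both systems, and several of them belong to the acute phase response of the liver.

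Liver RNA was measured in 30 male C57BL6/J mice, 6 on each of 5 diets, with 1 library of 3′ mRNA tags per mouse. The mice were labelled as 6 months old. They arrived at 9 weeks, moved to their final diet at 12 weeks, stayed on it for 12 weeks and were killed after a 4 h fast. Before the switch, the mice of the casein study ate the Cas-20% diet and those of the soy study the Soy-20% diet. The Cas-20% diet held 20% casein with 0.57 g methionine and 0.41 g cysteine per 100 g, and the Cas-5% diet held 5% casein with 0.15 g and 0.10 g. The Soy-20% diet held 20% soy protein with 0.22 g of each amino acid, and the Soy-20% + SAA diet was the same diet with both amino acids added, to 0.58 g and 0.41 g. The Soy-10% diet held 11.5% soy protein with 0.13 g of each. The casein comparison therefore changed protein and sulfur amino acids together, as did Soy-10% against Soy-20% + SAA and against Soy-20%. Soy-20% against Soy-20% + SAA changed the sulfur amino acids without the protein.

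Library totals ran from 7694015 to 14565542 counts, with a median of 10803734. The lowest raw count of any of the 40 genes in any liver was 19, for *Masp1*, and the mean normalised count over 30 livers ran from 31.0 for *Masp1* to 78149 for *Fgb*. Counting error was therefore small for all but *Masp1* and *F11*. The labelled tissue matched its markers, since all 9 hepatocyte markers were present and *Alb*, the gene of serum albumin, had a median of 505953 normalised counts over the 30 livers. In bulk tissue, fewer cells of a type and less RNA per cell cannot be told apart.

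Libraries of the Soy-20% + SAA livers 3 to 6 stood apart. Log2 expression was regressed on the percentage of G and C in the final 200 bases of each transcript, and the slope per 10 percentage points was 0.061, 0.196, 0.188 and 0.212 in these 4 livers. It was -0.026 and -0.030 in Soy-20% + SAA livers 1 and 2, and lay between -0.067 and 0.032 in the 24 livers of the other diets. Calls in the comparisons that use this diet are therefore also counted without livers 3 to 6. The casein comparison does not use them.

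Restriction of casein moved both systems in mixed directions. Of the 40 genes, 18 passed edgeR's quasi-likelihood test at a Benjamini-Hochberg adjusted p of 0.05, 6 higher and 12 lower on Cas-5% than on Cas-20%, against 24.9% of all 12076 genes tested, 11.6% higher and 13.3% lower. The ranges of the diets did not overlap for 11 of the 40 genes, against 12.9% of all genes. The median log2 fold change was -0.06 over the 40 genes and 0.02 over all genes tested, and the median absolute log2 fold change was 0.17 and 0.19. In complement, 5 of 19 genes rose and 5 fell, with a median log2 fold change of -0.01. In coagulation with its inhibitors and fibrinolysis, 1 of 21 rose and 7 fell, with a median of -0.11. Whether these counts differ between the systems was not tested.

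The balance of rises and falls depended on how the libraries were scaled. When counts were scaled to library totals alone, the median of all genes moved from 0.016 to 0.195 on the log2 scale, and 15 of the 40 genes were called higher and 7 lower, against 38.6% of all genes, 31.9% higher and 6.72% lower. Relative to that shift the 40 genes stayed below the middle of all genes, with a median of 0.115. None of the 18 genes changed sign under any of the 7 alternative settings, but *F7*, *F10*, *F13b*, *Serpind1* and *Serpinf2* lost their calls under library totals.

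**Figure D1:**
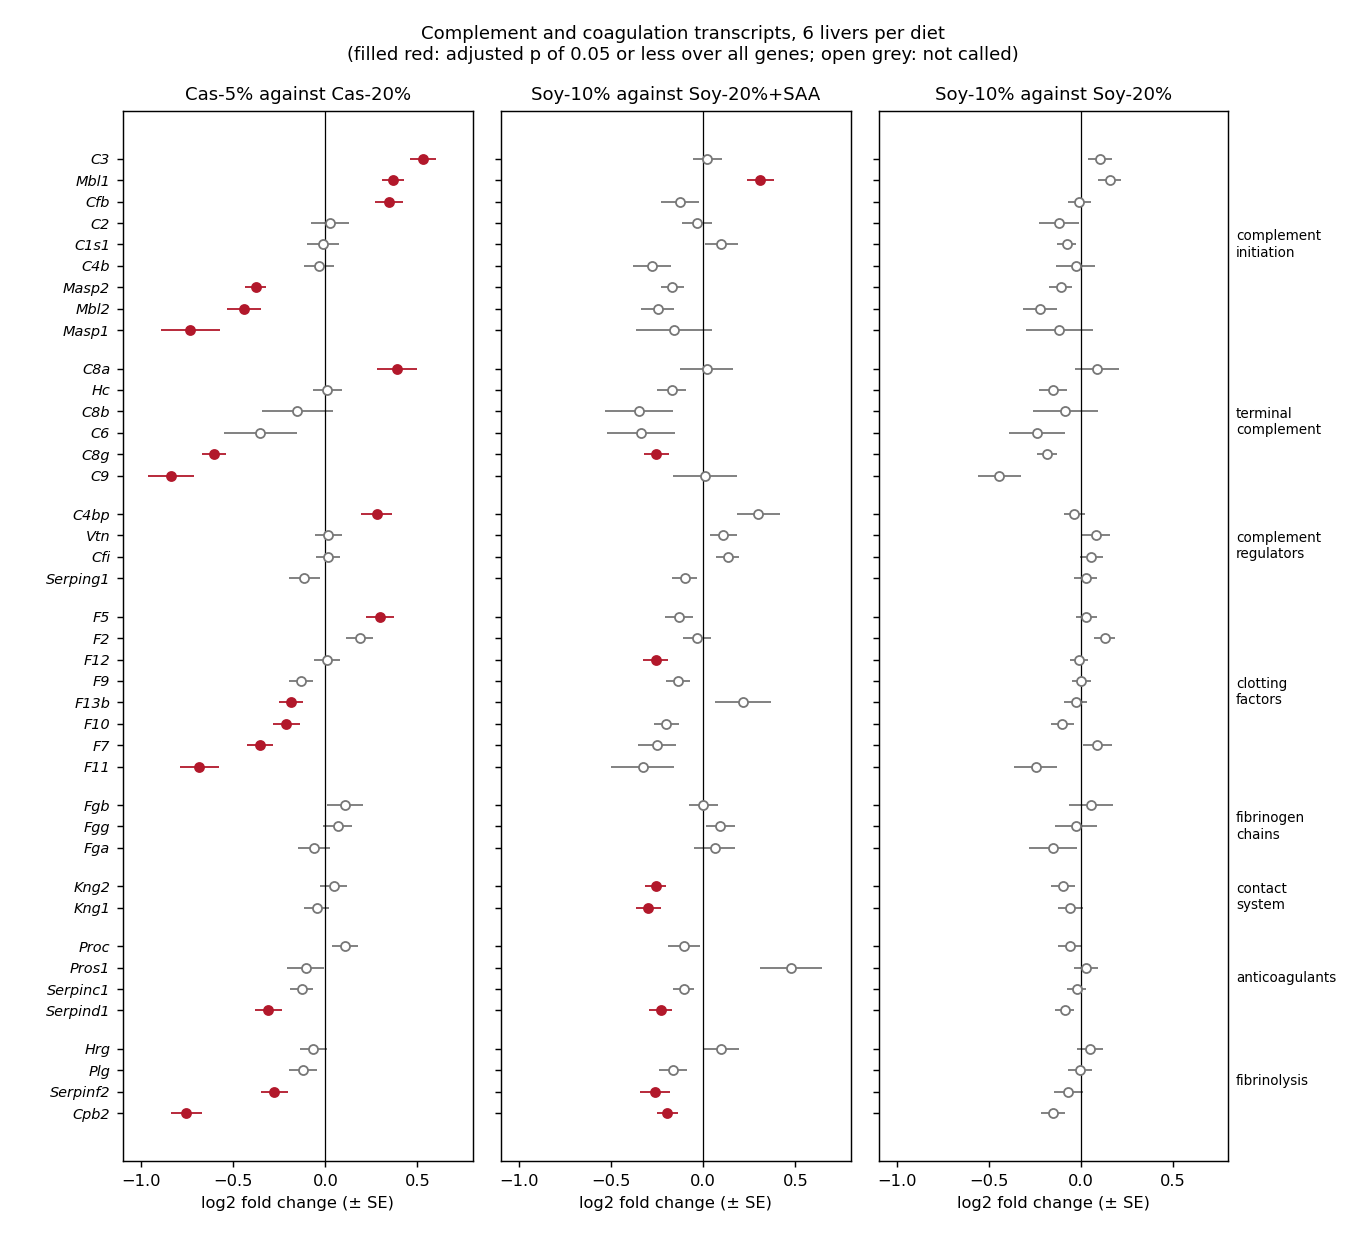
Log2 fold change of the 40 genes, grouped by role, for Cas-5% against Cas-20% and for Soy-10% against both soy controls. Points are edgeR estimates with bars of 1 SE, and filled points passed an adjusted p of 0.05. On casein the calls run from -0.84 for *C9* to 0.53 for *C3*, and against Soy-20% no point is filled.

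Of the 9 genes of complement initiation, 3 rose and 3 fell under casein restriction. *C3*, on which all pathways converge, had normalised counts of 16113, 16850.4 and 18544 (lowest, median and highest) on Cas-20% and of 22479, 24034 and 27682 on Cas-5%. Every Cas-5% liver lay above every Cas-20% liver, and *C3* rose by a log2 fold change of 0.53 ± 0.071 (SE, n = 6 per diet, edgeR adjusted p = 3.7e-05). *Cfb*, the protease of the alternative pathway convertase, ran from 1878 through 2282 to 2384 on Cas-20% and from 2523 through 2750.1 to 2935 on Cas-5%, again without overlap (0.34 ± 0.076, edgeR adjusted p = 0.0030).

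The mouse has a pair of mannose-binding lectins, and they moved in opposite directions. *Mbl1* had 1432, 1518 and 1729 counts on Cas-20% and 1816, 1979.8 and 2022 on Cas-5%, with no overlap (0.36 ± 0.060, edgeR adjusted p = 0.00026). *Mbl2* had 5873, 6708 and 8436 on Cas-20% and 4673, 4846 and 5894 on Cas-5%. Of the 6 Cas-5% livers, 5 were below the Cas-20% range, and *Mbl2* fell by 0.44 ± 0.093 (edgeR adjusted p = 0.0022). The lectin-associated proteases that these lectins carry both fell. *Masp1* dropped from 35.4, 40.2 and 51.7 counts to 18.4, 25.1 and 32.7 (-0.73 ± 0.16, edgeR adjusted p = 0.0029), and *Masp2*, which cleaves C4 and C2, from 1587, 1663 and 1811 to 1176, 1264 and 1339 (-0.38 ± 0.059, edgeR adjusted p = 0.00016). Neither overlapped between the diets. The 3′ end of *Masp2* is covered by *Tardbp* on the other strand, with a mean of 476.8 normalised counts of its own, and whether reads of that gene entered the counts of *Masp2* was not tested. The authors' pipeline is the version for libraries read in the direction of the transcript.

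*C1s1*, *C2* and *C4b* of the classical pathway were not called. Their log2 fold changes were -0.01 ± 0.089 for *C1s1*, a protease of the C1 complex, 0.02 ± 0.10 for *C2* and -0.03 ± 0.082 for *C4b*, the proteins that form the classical C3 convertase. *C1s1* and *C4b* have near-identical copies, *C1s2* and *C4a*, between which reads may be split. The 3′ end of *C2* is covered by *Gm20547* on the same strand, and its effect on the counts of *C2* was not tested.

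Subunits of the membrane attack complex did not move together. *C9*, which polymerises into the wall of the pore, gave the largest fall of the 40 genes, from 4318, 6609 and 7869 counts on Cas-20% to 2949, 3517 and 4352 on Cas-5%. Of 6 Cas-5% livers, 5 lay below the Cas-20% range, with a log2 fold change of -0.84 ± 0.12 (edgeR adjusted p = 0.00011). C8 is built from 3 chains with separate genes. *C8g*, its lipocalin chain, had 4640.2, 4859.8 and 4964 counts on Cas-20% and 2812, 3108 and 3594 on Cas-5%, without overlap (-0.60 ± 0.064, edgeR adjusted p = 3.9e-06). *C8a*, the alpha chain, was higher instead, with 2307, 3199 and 3733 counts on Cas-20% and 3435, 4043 and 4793 on Cas-5% (0.39 ± 0.11, edgeR adjusted p = 0.014), and 4 of the 6 livers were above the Cas-20% range. *C8b*, the beta chain, at -0.15 ± 0.19, *C6* at -0.35 ± 0.20 and *Hc*, the gene of C5, at 0.01 ± 0.077 were not called.

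Among the complement regulators, *C4bp*, a cofactor for the breakdown of C4b, rose by 0.28 ± 0.084 (edgeR adjusted p = 0.023). Its counts were 3513, 3653 and 3769.5 on Cas-20% and 3418, 4486 and 5246 on Cas-5%, and 1 Cas-5% liver fell below the whole Cas-20% range. Its call was lost without Cas-5% liver 5 (adjusted p = 0.057) and with the GC slope as a covariate (adjusted p = 0.068). Factor I (*Cfi*), the C1 inhibitor (*Serping1*) and vitronectin (*Vtn*) had log2 fold changes of 0.01, -0.11 and 0.02 and were not called.

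In coagulation, 3 of the 4 genes that fell encode serine proteases of the cascade. *F11*, whose protein is activated by thrombin and sustains its formation, had 241, 282 and 373 counts on Cas-20% and 149, 185 and 199.8 on Cas-5%. All Cas-5% livers lay below the Cas-20% range, a log2 fold change of -0.68 ± 0.10 (edgeR adjusted p = 0.00014). *F7*, which starts the cascade with tissue factor, fell from 578, 657 and 732 to 475, 511 and 555 without overlap (-0.35 ± 0.069, edgeR adjusted p = 0.0011). *F7* and *F10* are neighbours on chromosome 8 (GRCm38 chr8:13026034-13035809 and chr8:13037308-13056676, both on the plus strand). *F10*, whose protein forms thrombin, had 3629, 4015 and 4588 counts on Cas-20% and 3106, 3556 and 3643 on Cas-5% (-0.21 ± 0.075, edgeR adjusted p = 0.047), and 5 of 6 livers were below the Cas-20% range.

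*F5*, the cofactor of factor Xa, was the only one of the 13 coagulation genes that was called higher on Cas-5%. It had 7375, 7714 and 8717 counts on Cas-20% and 8113, 9586 and 10884 on Cas-5%, with 5 of 6 livers above the Cas-20% range (0.30 ± 0.077, edgeR adjusted p = 0.0093). *F13b*, the carrier subunit of the enzyme that cross-links fibrin, fell by 0.19 ± 0.063 (edgeR adjusted p = 0.040), from 2031, 2163 and 2359 counts to 1719, 1889 and 2074. The calls of *F10* and *F13b* were near the threshold. They were lost in 10 and 8 of the 12 fits that left out 1 liver, with adjusted p of up to 0.098 and 0.092.

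Prothrombin (*F2*) at 0.19 ± 0.072 (edgeR adjusted p = 0.072), *F9* at -0.13 ± 0.063 and *F12* at 0.01 ± 0.072 were not called. Neither were the genes of the fibrinogen chains, which lie together on chromosome 3. *Fga*, *Fgb* and *Fgg* had log2 fold changes of -0.06 ± 0.087, 0.11 ± 0.097 and 0.07 ± 0.080. *Fgb* had 67045, 73107 and 82618 counts on Cas-20% and 60663, 80906 and 91705 on Cas-5%, ranges that overlapped throughout. The kininogens *Kng1* and *Kng2* of the contact system were at -0.05 ± 0.068 and 0.04 ± 0.073.

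Among the inhibitors and the proteins of fibrinolysis, every call was lower on Cas-5%. *Cpb2* encodes a carboxypeptidase that is activated by thrombin and slows the dissolution of fibrin. It had 3562, 3659 and 4043 counts on Cas-20% and 1809, 2099 and 2705 on Cas-5%. No Cas-5% liver reached the Cas-20% range, and the log2 fold change was -0.75 ± 0.085 (edgeR adjusted p = 6.5e-06). *Serpinf2*, the gene of alpha 2-antiplasmin, fell from 5229, 5795 and 6526 to 4354, 4739 and 5089 (-0.28 ± 0.073, edgeR adjusted p = 0.010). *Serpind1*, which encodes the thrombin inhibitor heparin cofactor II, fell from 3541, 3776 and 4445 to 2623, 3114 and 3258 (-0.31 ± 0.074, edgeR adjusted p = 0.0053). Neither overlapped between the diets. The 3′ end of *Serpind1* is covered by *Pi4ka* on the other strand, which had a mean of 186.8 normalised counts. Those of *Serpinc1* and *Plg* are covered by *Zbtb37* and *Slc22a3* on the other strand, with means of 37.67 and 26.13. Whether reads of these genes entered the counts was not tested. Antithrombin (*Serpinc1*), protein C (*Proc*) and protein S (*Pros1*) had log2 fold changes of -0.13, 0.10 and -0.11, and plasminogen (*Plg*) and *Hrg* of -0.12 and -0.07, with no call.

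**Figure D2:**
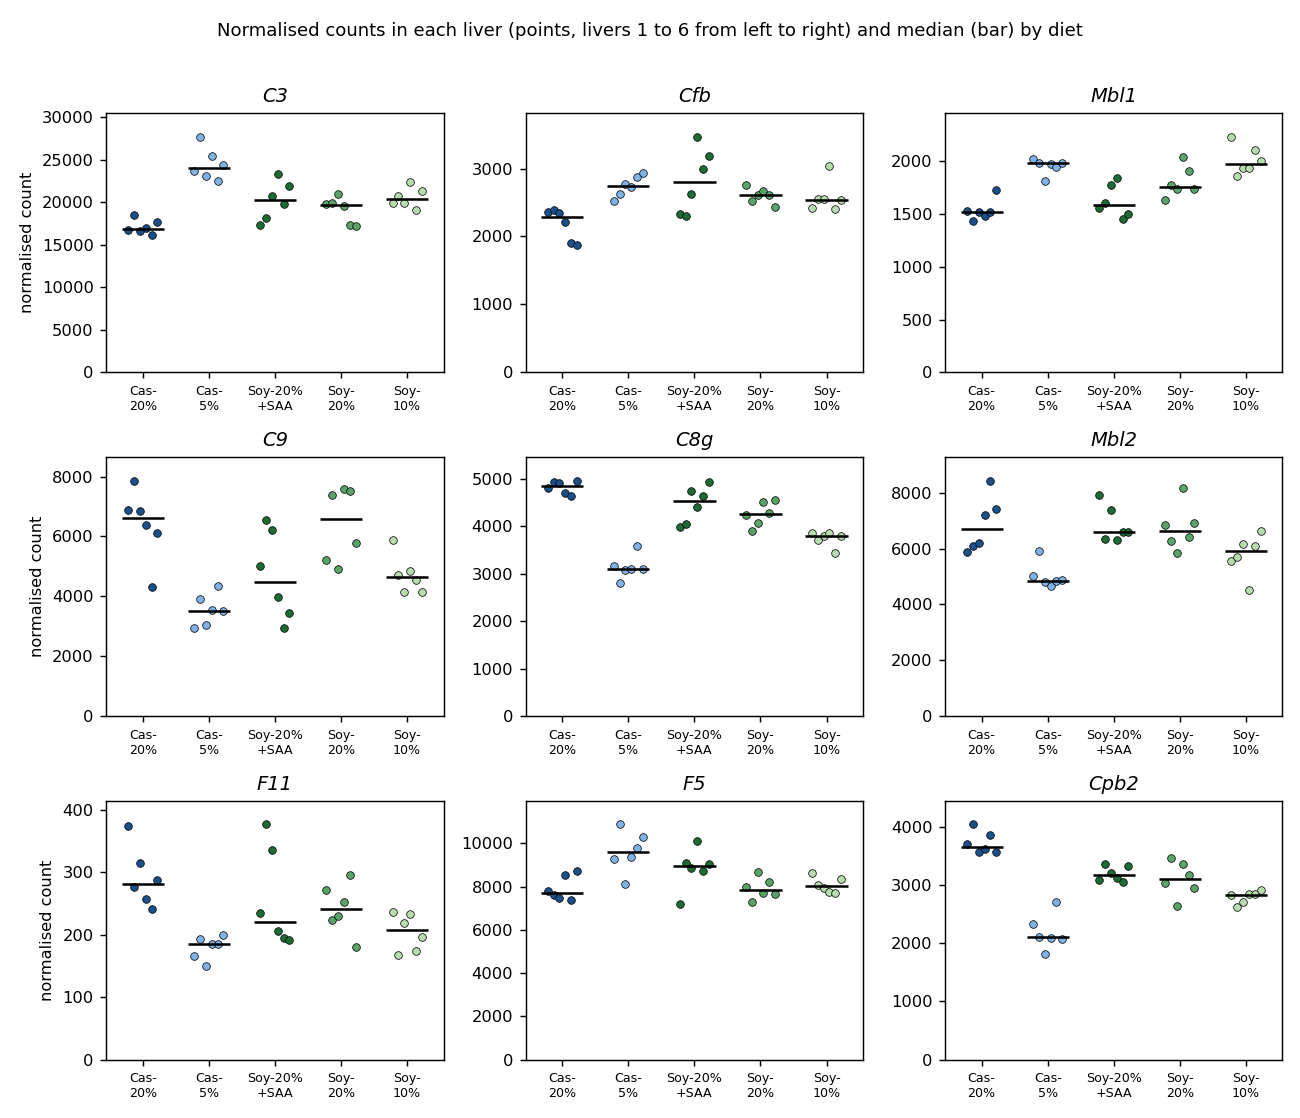
Normalised counts of 9 of the genes in every liver, by diet, with a line at each median and a linear axis from 0 in every panel. *C3*, *Cfb* and *Mbl1* sit higher and *C8g*, *F11* and *Cpb2* lower in all 6 Cas-5% livers than in any Cas-20% liver, and the soy groups overlap more.

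The promoters of the gene with the largest rise on Cas-5%, *C3*, and of the genes with the largest falls in complement, coagulation and fibrinolysis, *C9*, *F11* and *Cpb2*, are shown with the site motif they share. RefSeq promoters of GRCm38.p6, 250 bases before to 50 bases after the start, were found for 31 of the 40 genes. Both strands were searched for TTGCNNAA, the core bound by C/EBP factors, which act in hepatocytes and in the acute phase response. It was present for 11 of the 31 (35.5%) and in 12.2% of 27025 mouse promoters. The windows of *C3* (chr17:57228087-57228386, minus strand), *C9* (chr15:6445096-6445395, plus strand), *Cpb2* (chr14:75242037-75242336, plus strand) and *F11* (chr8:45261982-45262281, minus strand) are printed 5′ to 3′ on the strand of the gene. Capitals mark the match, which begins at -45, -132, 8 and -17 from the start, respectively.
C3: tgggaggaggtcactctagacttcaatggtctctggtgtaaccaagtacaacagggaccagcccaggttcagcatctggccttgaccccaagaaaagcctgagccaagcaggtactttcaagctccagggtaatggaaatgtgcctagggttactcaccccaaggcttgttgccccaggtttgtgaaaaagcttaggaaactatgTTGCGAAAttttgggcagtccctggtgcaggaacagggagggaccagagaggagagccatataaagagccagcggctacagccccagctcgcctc
C9: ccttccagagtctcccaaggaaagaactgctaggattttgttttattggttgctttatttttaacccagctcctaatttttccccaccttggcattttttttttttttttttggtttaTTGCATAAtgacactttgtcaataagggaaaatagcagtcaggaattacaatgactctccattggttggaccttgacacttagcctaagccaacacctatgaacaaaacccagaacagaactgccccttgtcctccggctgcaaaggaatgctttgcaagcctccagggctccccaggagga
Cpb2: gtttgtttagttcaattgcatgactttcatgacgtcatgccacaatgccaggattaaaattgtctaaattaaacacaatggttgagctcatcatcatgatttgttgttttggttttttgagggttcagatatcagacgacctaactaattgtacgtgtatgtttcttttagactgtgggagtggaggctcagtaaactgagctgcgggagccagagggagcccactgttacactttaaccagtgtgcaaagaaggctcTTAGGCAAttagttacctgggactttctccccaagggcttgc
F11: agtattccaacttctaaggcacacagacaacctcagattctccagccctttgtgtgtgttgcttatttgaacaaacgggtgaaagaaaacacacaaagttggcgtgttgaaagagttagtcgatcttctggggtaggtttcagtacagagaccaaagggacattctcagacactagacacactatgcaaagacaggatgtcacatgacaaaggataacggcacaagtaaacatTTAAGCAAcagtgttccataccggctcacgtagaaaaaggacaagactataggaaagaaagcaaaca
The window of a gene that rose and those of genes that fell thus held a match. The other 7 with a match were *C1s1*, *F9*, *Fga*, *Fgb*, *Hrg*, *Kng2* and *Serpinc1*, none of which was called under casein restriction. TTCNNNGAA, the core of STAT sites, was in 7 of the 31 (22.6%) and in 9.55% of all promoters, and GGTTAAT, a core of HNF1 sites, in 4 (12.9%) and in 2.1%. TATAAA was in 4 (12.9%) and in 15.7%. The C/EBP-ATF composite TGATGNAAT, which occurs in 1.08% of promoters, and the HNF4 core CAAAGTCCA, in 0.555%, were in none of the 31. A match is a run of letters, and binding was not measured.

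Restriction of soy protein was compared with each soy control. Against Soy-20% + SAA, 8 of the 40 genes were called, 1 higher and 7 lower on Soy-10%, against 17.0% of 11983 genes tested, 8.51% higher and 8.47% lower. Ranges did not overlap for 7 genes, against 6.22% of all genes. The median log2 fold change was -0.13 over the 40 genes and -0.01 over all genes. No gene of the list was called with the GC slope of the libraries as a covariate, where 2.96% of all genes were, or without Soy-20% + SAA livers 3 to 6, where 2.54% were. At an unadjusted p under 0.05, 18 of the 40 passed with all livers, as did 33.9% of all genes, and 11 passed without livers 3 to 6, as did 15.9%. The count also moved upward, to 14 of the 40 without Soy-20% + SAA liver 1, where 25.8% of all genes were called, and to 13 in 1 fit on all 30 livers.

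Both measured genes listed for the contact system, *Kng1* and *Kng2*, were called against Soy-20% + SAA, where 17.0% of all genes were. *F12* was listed with the clotting factors, of which 1 of 8 was called. *Kng1*, the source of bradykinin, had 14060.3, 15258 and 17467 counts on Soy-20% + SAA and 12046, 12596 and 13727 on Soy-10% (-0.30 ± 0.068, edgeR adjusted p = 0.011). *Kng2*, its near copy, had 1954, 2013 and 2162 on Soy-20% + SAA and 1593, 1721 and 1762 on Soy-10% (-0.26 ± 0.055, edgeR adjusted p = 0.0076). *F12*, the protease that starts contact activation, had 3878, 4364 and 4956 on Soy-20% + SAA and 3538, 3620.5 and 3764 on Soy-10% (-0.26 ± 0.068, edgeR adjusted p = 0.020). All 3 fell without overlap between the diets. In the Soy-20% + SAA livers 1 and 2, *F12* was at 3878 and 3931, and in livers 3 to 6 at 4182, 4956, 4545 and 4548, so the libraries that stood apart were also the highest in *F12*. Without livers 3 to 6 the log2 fold changes of *Kng1*, *Kng2* and *F12* were -0.20, -0.21 and -0.11, with adjusted p of 0.22, 0.15 and 0.46.

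The other calls against Soy-20% + SAA had also been called for casein, in the same direction. *Mbl1* had 1450.5, 1585 and 1845 counts on Soy-20% + SAA and 1859, 1973 and 2233 on Soy-10%, and was the only rise (0.31 ± 0.073, edgeR adjusted p = 0.013). It was 0.34 without livers 3 to 6, with an adjusted p of 0.054. *C8g* fell from 3989.5, 4523 and 4936 to 3436, 3797 and 3866 (-0.26 ± 0.067, edgeR adjusted p = 0.020), and *Cpb2* from 3059, 3167 and 3364 to 2628, 2834 and 2923 (-0.20 ± 0.055, edgeR adjusted p = 0.028). None of these 3 overlapped between the diets. *Serpind1* fell by 0.23 ± 0.064 and *Serpinf2* by 0.26 ± 0.080 (edgeR adjusted p = 0.025 and 0.038), from medians of 3873 and 5809.8 to 3206 and 4599.6. Without livers 3 to 6, *C8g* was at -0.11 (adjusted p = 0.50), *Cpb2* at -0.21 (0.17), *Serpind1* at -0.16 (0.31) and *Serpinf2* at -0.23 (0.19). The ranges of *Serpinf2* overlapped, and its call was lost in 9 of 12 fits that left out 1 liver, that of *Serpind1* in 5 and that of *Cpb2* in 3.

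The effect against Soy-20% + SAA varied with the base composition of the transcript ends. Across the 40 genes, the log2 fold change of Soy-10% against Soy-20% + SAA and the GC content of the last 200 bases, which ran from 25% to 53.8%, were related with r = -0.51 (Pearson) and rho = -0.41 (Spearman). Over all genes the values were -0.26 and -0.28. For Soy-10% against Soy-20% the 40 genes gave 0.11 and 0.13, and for the casein comparison 0.07 and 0.07. These are descriptions across genes of the same libraries, and genes are not independent replicates.

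**Figure D3:**
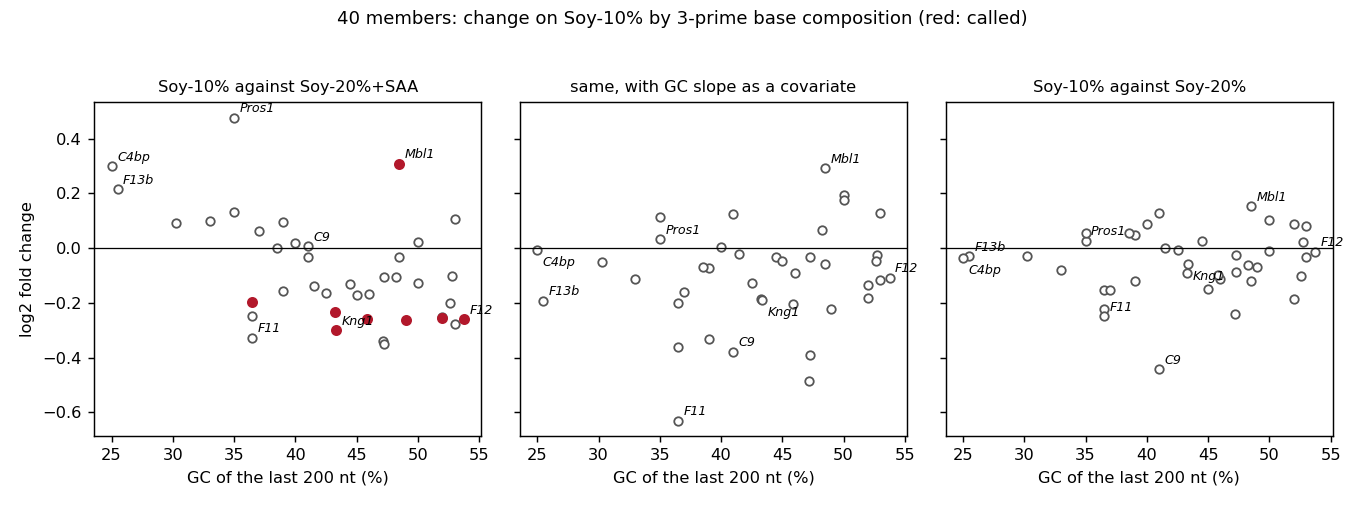
Log2 fold change of the 40 genes for Soy-10% against each soy control, plotted against the GC content of the last 200 bases of the transcript in percent. Against Soy-20% + SAA the points slope downward with a Pearson r of -0.51, and against Soy-20% no such slope is seen, with an r of 0.11.

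Single genes showed the split within the Soy-20% + SAA group. *Pros1*, the gene of protein S, had 505 and 511 counts in livers 1 and 2 and 348, 222, 307 and 279.9 in livers 3 to 6. *C4bp* had 3925 and 3927 in livers 1 and 2 and 3395, 2446, 2482 and 2769 in livers 3 to 6. *Cfb* went the other way, with 2331 and 2296 in livers 1 and 2 and 2623, 3467, 2995 and 3186 in livers 3 to 6. In all 3 genes livers 3 to 6 lay on one side of livers 1 and 2. *C9* was mixed, with 5001 and 6542 in livers 1 and 2 and 6206, 3969, 2948 and 3438 in livers 3 to 6. None of these 4 genes was called against Soy-10%, and their log2 fold changes were 0.48 ± 0.17 for *Pros1*, 0.30 ± 0.12 for *C4bp*, -0.13 for *Cfb* and 0.01 for *C9*. Without livers 3 to 6 they were -0.02 for *Pros1*, -0.02 for *C4bp*, 0.15 for *Cfb* and -0.30 for *C9*, and none was called.

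Against Soy-20%, which shares no library with that group, none of the 40 genes was called on Soy-10% by edgeR, where 0.866% of 11897 genes were. At an unadjusted p under 0.05 there were 7, as were 12.3% of all genes, and DESeq2 called *C8g* and *C9*, and 1.66% of all genes. The median absolute log2 fold change of the 40 genes was 0.083, compared with 0.095 over all genes. *C9* had the largest difference, with 4912, 6591 and 7577 counts on Soy-20% and 4137, 4640.0 and 5874 on Soy-10% (-0.44 ± 0.12, edgeR adjusted p = 0.10). *C8g* had 3898, 4261 and 4552 on Soy-20% and was the only gene of the list whose ranges did not overlap, as did 1.34% of all genes (-0.19 ± 0.055, edgeR adjusted p = 0.14). The other 5 with an unadjusted p under 0.05 were *F11* (-0.25), *Mbl2* (-0.22), *Cpb2* (-0.15), *Mbl1* (0.15) and *F2* (0.13). With 6 livers per diet these values did not pass the adjusted test, which does not show that the diets act alike.

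The casein comparison and Soy-10% against Soy-20% have no liver in common, so their values can be set side by side. Of the 40 genes, 28 had the same sign in both (Pearson r = 0.73, Spearman rho = 0.63). Over all 11794 genes tested in both, 7767 had the same sign, with an r of 0.58 and a rho of 0.45. With Soy-20% + SAA as the soy control, 26 of the 40 had the same sign (r = 0.41, rho = 0.48), and over all genes r was 0.47 and rho 0.35. Without livers 3 to 6 the 40 genes gave r = 0.75 and rho = 0.72. *C9*, *F11*, *Mbl2*, *C8g* and *Cpb2* were lower and *Mbl1* was higher in both, whereas *C3*, at 0.53 on casein, was at 0.10 on soy. Depth, annotation and base composition are shared by all points, and the relation is given as a description without a test.

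**Figure D4:**
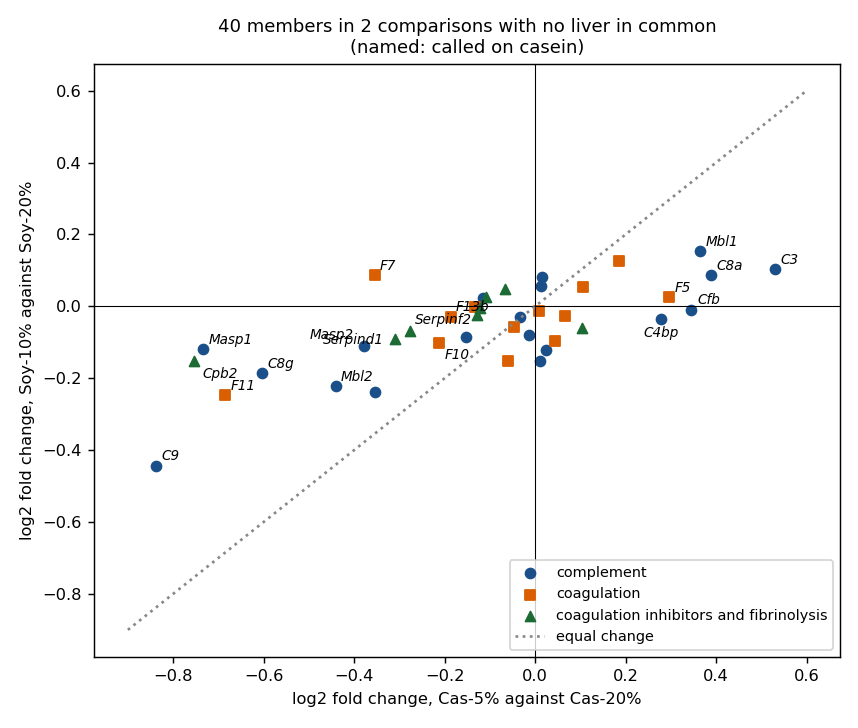
Log2 fold change of each of the 40 genes for Cas-5% against Cas-20% on the horizontal axis and for Soy-10% against Soy-20% on the vertical axis, coloured by system. The points rise from *C9* at -0.84 and -0.44 to *C3* at 0.53 and 0.10, and 28 of 40 have the same sign on both axes.

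The difference of the effects, casein minus soy with Soy-20% + SAA as the soy control, was tested in 24 livers. It passed for 7 of the 40 genes, 4 higher and 3 lower, against 8.69% of 12532 genes tested, 3.20% higher and 5.49% lower. The balance depended on the scaling, since library totals gave 8 of the 40 higher and 2 lower, and over all genes 1200 higher and 387 lower in place of 401 and 688. *Cpb2* differed by -0.57 ± 0.099 (edgeR adjusted p = 0.0015) and *C8g* by -0.36 ± 0.087 (edgeR adjusted p = 0.014), so the fall of both was larger on casein. *C3* differed by 0.50 ± 0.10 (edgeR adjusted p = 0.0044), with a log2 fold change of 0.53 on casein and 0.02 on soy. These 3 were also called with the GC slope as a covariate, where 4.36% of all genes were, and when Soy-20% took the place of the control, where 5.99% were. Without Soy-20% + SAA livers 3 to 6, *Cpb2* and *C8g* were called, at -0.55 and -0.50 (edgeR adjusted p = 0.023 and 0.0081), where 2.27% of all genes were, and *C3* was at 0.32 with an adjusted p of 0.12. *C8g* was not called under library totals.

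The other 4 calls for the difference were lost without the libraries that stood apart. *C9* (-0.85 ± 0.23), *F5* (0.42 ± 0.11), *Kng2* (0.30 ± 0.087) and *Cfb* (0.46 ± 0.13) had adjusted p of 0.023, 0.015, 0.034 and 0.028. None of the 4 was called without livers 3 to 6, where they were at -0.55, 0.31, 0.25 and 0.18, or with the GC slope as a covariate. With Soy-20% as the soy control, *Cfb* was called at 0.35 (adjusted p = 0.030), as were *Masp2* at -0.27 (adjusted p = 0.041) and *F7* at -0.45 (adjusted p = 0.0082), while *C9* was at -0.40 with an adjusted p of 0.21.

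**Figure D5:**
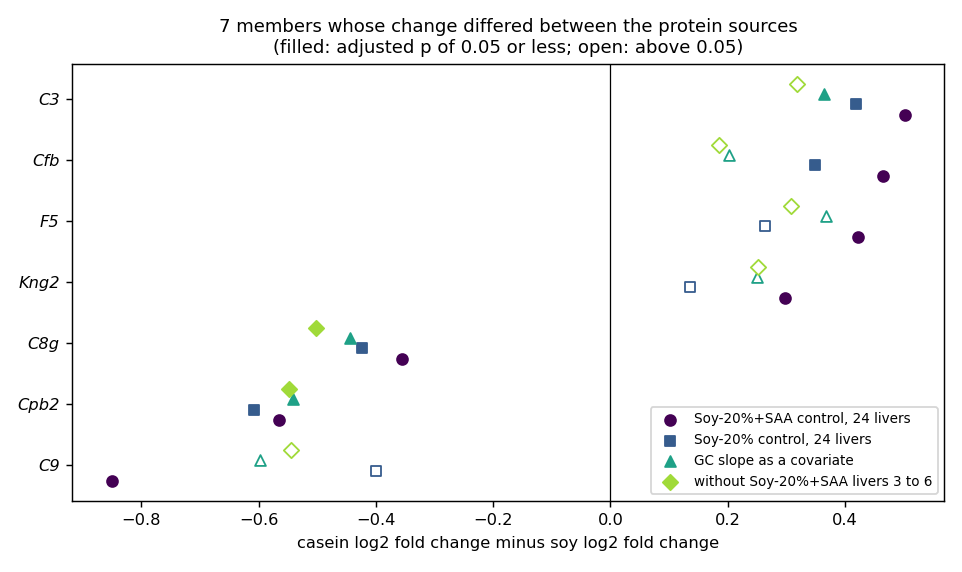
Difference of the casein and soy effects on the log2 scale in 4 settings, with filled points where the adjusted p was 0.05 or less. The 7 genes drawn are those called with Soy-20% + SAA as the soy control and all its livers. *Masp2* and *F7*, called with Soy-20% as the soy control, are not drawn. *Cpb2* and *C8g* are filled and below 0 in all 4 settings, and *C3* is filled in 3.

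The controls were compared with each other as well. Soy-20% against Soy-20% + SAA, which separates sulfur amino acids from protein, gave no call by edgeR among the 40 genes, where 0.00838% of 11932 genes were called. There were 8 at an unadjusted p under 0.05, as were 24.2% of all genes, and 1 without livers 3 to 6, as were 6.81%. DESeq2 called *F12* (-0.24), *Kng1* (-0.24) and *F7* (-0.34), and 7.46% of all genes. Without Soy-20% + SAA liver 1, edgeR called 5 of the 40, and 13.3% of all genes. *F7* had 517, 571 and 737 counts on Soy-20% + SAA and 436, 483 and 529 on Soy-20%, with overlap (-0.33 ± 0.093, edgeR adjusted p = 0.078), and was at -0.22 without livers 3 to 6. Cas-20% against Soy-20% + SAA also gave no call among the 40 genes, where 2.43% of 11988 genes were called. There were 13 at an unadjusted p under 0.05 (26.2% of all genes) and 2 without livers 3 to 6 (7.25%). DESeq2 called 7 (10.4%), and edgeR without Soy-20% + SAA liver 1 called 8 (15.1%). The smallest adjusted p of that comparison was that of *Cpb2*, at 0.22 ± 0.063 (edgeR adjusted p = 0.059) and at 0.20 without livers 3 to 6.

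Over all 5 diets, edgeR's test for any difference called 23 of the 40 genes, where 43.4% of 12561 genes were called. They were 10 of 19 in complement, 9 of 13 in coagulation and 4 of 8 among the inhibitors and fibrinolysis. Without Soy-20% + SAA livers 3 to 6, and with the GC slope as a covariate, the number was 19 in each case, and the share of all genes 26.2% and 28.2%. Among the 23, the Cas-5% median was the lowest of the 5 in 10 genes and the highest in 5. The Cas-20% median was the highest in 10 and the lowest in 6, and that of Soy-20% + SAA was the highest in the remaining 8. Soy-20%, Soy-10% and Soy-20% + SAA were the lowest in 1, 3 and 3 genes. The place of Soy-20% + SAA in this order rested on its livers 3 to 6. With livers 1 and 2 alone its median was the lowest in none and the highest in 4 of the 23, and only *F12* was among the 8 above. *Serpind1*, *Kng1* and *Serpinf2* were then highest on Cas-20%, *F9* and *F10* on Soy-20%, *F2* on Soy-10% and *Cfb* on Cas-5%. The spread between the highest and the lowest diet median was 1.88-fold for *C9*, 1.74-fold for *Cpb2*, 1.60-fold for *Masp1*, 1.56-fold for *C8g*, 1.53-fold for *Pros1* and 1.52-fold for *F11*. For *Pros1* and *F11* it was 1.04-fold and 1.65-fold without livers 3 to 6.

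The order of the 5 diets was alike for *C8g* and *Cpb2*. Their medians fell from Cas-20% (4859.8 and 3659) through Soy-20% + SAA (4523 and 3167), Soy-20% (4261 and 3104) and Soy-10% (3797 and 2834) to Cas-5% (3108 and 2099). The Soy-20% + SAA medians were 4020.3 and 3223 without livers 3 to 6, so that for *C8g* this diet was below Soy-20%, while for *Cpb2* the order was kept. For *Cpb2* the ranges of Soy-20% + SAA, 3059 to 3364, and of Soy-20%, 2643 to 3461, overlapped, and so did those of Soy-20% and Soy-10%. For *C8g* the highest Cas-5% liver, at 3594, was above 1 Soy-10% liver, at 3436, and the highest *Cpb2* count on Cas-5%, 2705, was inside the Soy-10% range. For *Mbl1* the order ran the other way, with medians of 1518 on Cas-20%, 1585 on Soy-20% + SAA, 1761 on Soy-20%, 1973 on Soy-10% and 1979.8 on Cas-5%, and the last 2 overlapped.

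The share of all counts that the 40 genes took together was 2.80% to 3.10% in the Cas-20% livers and 3.16% to 3.59% in the Cas-5% livers, with medians of 2.89% and 3.35%. That is 0.21 on the log2 scale, where the median of all genes moved by 0.195 when counts were scaled to library totals, a shift of nearly the same size. It was 2.89% to 3.26% on Soy-20% + SAA, 2.55% to 3.65% on Soy-20% and 2.89% to 3.18% on Soy-10%. The casein groups did not overlap and the soy groups did. This sum is led by *Fgb* and the other highly counted genes, and is not the median gene of the list.

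Other genes of both systems were looked at from lists chosen beside the 40. Of 31 further complement genes, 22 were tested for casein, and 4 rose and 3 fell on Cas-5%, 31.8% of those tested, where 24.9% of all genes were called. Under library totals 10 were called higher and 2 lower, against 38.6% of all genes called. *C1ra*, a protease of C1, rose by 0.46 ± 0.11 and *Colec11*, a collectin of the lectin pathway, by 0.28 ± 0.07 (edgeR adjusted p = 0.0058 and 0.0082). *C4a*, the near copy of *C4b*, fell from 74.7, 86.9 and 101.9 counts to 22.8, 33.9 and 53.8 (-1.31 ± 0.18, edgeR adjusted p = 3.9e-05). *Clu*, whose protein blocks the terminal complex, fell by 0.27 ± 0.07 (edgeR adjusted p = 0.010). On soy, 3 rose and 1 fell against Soy-20% + SAA, 18.2% of those tested, where 17.0% of all genes were called. *Cd55*, the decay-accelerating factor, had the smallest adjusted p, at 0.97 ± 0.14. With the GC slope as a covariate *Cd55* was the only one of the list called, and without livers 3 to 6 none was. Against Soy-20% none of 23 was called by edgeR, where 0.866% of all genes were, with 2 at an unadjusted p under 0.05, as were 12.3% of all genes.

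Of 34 further genes of coagulation and fibrinolysis, 24 were tested for casein, and 4 rose and 7 fell, where 11.6% of all genes were higher and 13.3% lower. *F8*, the gene of the cofactor factor VIII, was among those that rose (0.28 ± 0.08, edgeR adjusted p = 0.020), and was chosen after its values were seen. Endothelial cells of the liver also express *F8*, and it is 1 of the 3 endothelial markers that were called higher on Cas-5%. *Serpina1d* and *Serpina1b*, near-identical genes of alpha 1-antitrypsin between which reads may be split, fell by 0.90 ± 0.09 and 0.52 ± 0.09 (edgeR adjusted p = 3.0e-06 and 0.00025). *Pzp*, a broad protease inhibitor of the alpha 2-macroglobulin family, rose by 0.46 ± 0.08, while *Tfpi2*, a Kunitz-type inhibitor, fell by 0.62 ± 0.12 and *Habp2*, a protease that can activate factor VII, by 0.27 ± 0.07 (edgeR adjusted p = 0.00049, 0.0013 and 0.0090). Under library totals 8 rose and 3 fell, where 31.9% of all genes were higher and 6.72% lower, so the balance of this list also depended on the scaling. Against Soy-20% + SAA 2 rose and 4 fell, where 8.51% of all genes were higher and 8.47% lower. The smallest adjusted p was that of *Serpina1d*, at -0.43 ± 0.07. It was also the only one of the list called with the GC slope as a covariate, and none was called without livers 3 to 6.

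*F7*, *F9*, *F10*, *F2*, *Proc* and *Pros1* encode proteins that need vitamin K-dependent carboxylation. Of 8 genes of the vitamin K cycle, 7 were tested and 2 were called on casein, 28.6%, where 24.9% of all genes were. *Vkorc1*, the epoxide reductase, rose from 2813, 2938 and 3033 counts to 3280.4, 3391 and 3583 (0.24 ± 0.05, edgeR adjusted p = 0.0042). *Cyp4f14*, a cytochrome P450 of a family that degrades vitamin K, fell from 2119, 2444 and 2632 to 1384, 1663 and 1802 (-0.57 ± 0.08, edgeR adjusted p = 5.6e-05). Neither overlapped between the casein diets. Of the 6 genes whose proteins need this carboxylation, *F7* and *F10* were called on casein, where 24.9% of all genes were.

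Some markers of other cell types moved with the casein diets, and their part in the results was not tested. The summed normalised counts of the 5 red blood cell markers, led by *Hbb-bs*, were 15728, 25137 and 34944 on Cas-20% and 11503, 16556 and 19812 on Cas-5%, and 4 of the 5 were called lower. The 9 endothelial markers, led by *Kdr*, summed to 3313, 3576 and 3701 on Cas-20% and to 3717, 3890 and 4085 on Cas-5%, and 3 were called higher, *Kdr*, *Stab1* and *F8*. The 9 stellate cell markers, led by *Dcn*, summed to 4338, 4586 and 5250 on Cas-20% and to 4822, 5578 and 6328 on Cas-5%, with 2 called higher. The calls were 80% of the red blood cell, 33.3% of the endothelial and 22.2% of the stellate markers. Over all genes 24.9% were called. Of the 9 hepatocyte markers, *Alb* and *Hnf4a* were called higher on Cas-5%, by 0.35 ± 0.09 and 0.27 ± 0.06, and *Ass1*, *Cps1* and *Tat*, enzymes of urea synthesis and tyrosine breakdown, lower, by log2 fold changes of -2.39, -1.40 and -1.63. None of the 11 Kupffer cell markers, led by *Cd5l*, was called in the casein comparison by edgeR with TMM scaling, with 1 at an unadjusted p under 0.05, while 1 was called higher with the GC slope as a covariate. The marker calls depended on the scaling. Under library totals 1 of the 5 red blood cell markers, *Alas2*, was called lower, and 6 endothelial, 6 stellate and 2 Kupffer cell markers were called higher. With that scaling 31.9% of all genes were called higher and 6.72% lower. Of 12 acinar markers listed, *Cela1* alone was tested, and it fell by 0.75 ± 0.19 (edgeR adjusted p = 0.0080). Its medians were 432.2 on Cas-20% and 259.9 on Cas-5%, where the sums of the acinar list had medians of 435 and 261. Of 3 platelet markers tested, *Itga2b* rose by 0.66 ± 0.23 (edgeR adjusted p = 0.048) and 2 were lower without a call. *Itga2b* had at most 25.2 counts in a casein liver, and the summed platelet medians were 55 on Cas-20% and 57 on Cas-5%. The platelet and neutrophil markers were near the lowest counts of the table, with 3 of 8 present in each list and sums of at most 77 and 82 in the Cas-20% livers.

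Markers moved in the comparisons with Soy-20% + SAA as well. Over all genes, 17.0% were called on Soy-10% and 2.43% on Cas-20% against that diet. On Soy-10% the Kupffer cell markers *Marco*, a scavenger receptor, and *C1qc*, a chain of C1q that is also among the further complement genes, were called higher, at 2.35 ± 0.59 and 0.34 ± 0.10, as were the endothelial marker *Fcgr2b* at 0.37 ± 0.11 and the platelet marker *Ppbp* at 1.03 ± 0.24 (edgeR adjusted p = 0.016, 0.031, 0.031 and 0.012). *Marco* ran from 15.5 to 47.9 counts on Soy-20% + SAA and from 62.6 to 669.7 on Soy-10%, and *Ppbp* had at most 19.8 counts. The 4 were at 2.33, 0.32, 0.09 and 1.64 without livers 3 to 6, and *Ppbp* was the only one of the 4 called (edgeR adjusted p = 0.048). With all livers, called or not, 2 of the 9 endothelial markers were higher on Soy-10% and 7 lower, with a median of -0.06. In the Kupffer cell list 8 of 11 were higher, and in the platelet list 2 of the 3 tested. The shares called were 11.1%, 18.2% and 33.3%, respectively. Of the 9 hepatocyte markers *Ass1* and *Apoa1* were lower on Soy-10%, at -0.88 ± 0.11 and -0.31 ± 0.10 (edgeR adjusted p = 0.00033 and 0.047), and without livers 3 to 6 *Ass1* was called at -0.76 (edgeR adjusted p = 0.0051) and *Apoa1*, at -0.38, was not (0.16). On Cas-20% against Soy-20% + SAA, the globin genes *Hbb-bs*, *Hbb-bt*, *Hba-a1* and *Hba-a2* were called higher, by 0.75 to 0.81, and with nearly the same log2 fold changes of 0.77 to 0.84 were not called without livers 3 to 6. The hepatocyte markers *Tat*, *Cps1* and *Ass1* were called higher in that comparison too, at 1.78, 1.0 and 0.69, and at 1.24, 0.55 and 0.81 without livers 3 to 6, with no call. On Soy-10% against Soy-20%, *Ass1* was called lower, at -0.87 ± 0.11 (edgeR adjusted p = 0.0013), with no overlap. It was 11.1% of the hepatocyte markers, where 0.866% of all genes were called. The part of these markers in the results was not tested.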

How the data were processed

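Libraries of 3′ mRNA tags from 30 livers were made and sequenced by the authors, 1 per mouse. Mapping and read counting were done by the authors with the Lexogen QuantSeq FWD pipeline on the Bluebee platform. The aligner and counter inside it, and the annotation release, are not given in the sources used here. The submitters' processing notes name GRCm38/mm10, R 4.0.3 and DESeq2 1.30. The first deposited table holds raw counts per gene, which the authors made without normalization, and the second holds a normalised signal, the counts divided by DESeq2 size factors (0.759 to 1.297). Every column matched a sample.

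Livers were grouped by diet as labelled. Low counts were removed with filterByExpr, counts were scaled by TMM, and edgeR 4.0.16 in R 4.3.3 tested all genes by the quasi-likelihood F test, adjusted by Benjamini-Hochberg over all genes tested and called at 0.05. Each SE is the log2 fold change divided by the square root of F. DESeq2 1.42.0, other scalings, no filter, a replicate block, a covariate for the slope of log2 expression on GC content of the last 200 bases, 1 fit on 30 livers and leaving out livers were alternatives. Values printed per liver are the deposited normalised counts. Replicates were separate mice, and no pair agreed within sampling noise (chi-square per degree of freedom of 6.12 to 52.8 over 75 pairs).

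The 40 genes and all other lists were chosen with earlier results of these data known. Values by diet are given for up to 5 called genes with the largest change in each system and comparison and for those called in the difference of effects, and from other lists for up to 5 with the smallest adjusted p. Some genes that this rule chose are not reported here. *C8a*, *C4bp*, *Masp2* and *Fgb*, the values of single Soy-20% + SAA livers and the order of the diets without livers 3 to 6, were added after their values were seen. Python 3.11.15 with pandas 2.3.3 and matplotlib 3.10.9 made the summaries and figures.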

Additional observations from a re-analysis of the deposited data

Results flagged for a closer look

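In 12 of 145 groups of 6 livers, 1 liver lay farther from the rest than the limit of Dixon's test, which chance alone gives in about 1 of 20 groups. Among the complement genes, *C8g* was 3436 normalised counts in Soy-10% liver 5 with the next at 3717, *Mbl2* was 5894 in Cas-5% liver 2 with the next at 5032, and *Cfb* was 3042 in Soy-10% liver 4 with the next at 2557. *Mbl1* stood out in 2 groups, at 1729 in Cas-20% liver 6 with the next at 1526 and at 1816 in Cas-5% liver 3 with the next at 1949. Among the coagulation genes, *F12* was 3098 in Cas-5% liver 1 with the next at 3661, and *Serpind1* was 4445 in Cas-20% liver 2 with the next at 3827. The calls of *Mbl1*, *Mbl2* and *Serpind1* on casein, and that of *C8g* against Soy-20% + SAA, held without these livers.

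Summed marker counts stood out in 5 groups. They were 9479 for pancreatic acinar markers in Soy-10% liver 4 (next 369.6), 36652 for red blood cell markers in Soy-10% liver 2 (next 17922), 7240 for Kupffer cell markers in Soy-10% liver 6 (next 4974), 5906 for stellate cell markers in Soy-20% + SAA liver 2 (next 4700) and 26.1 for neutrophil markers in Soy-20% + SAA liver 5 (next 42.0). Soy-10% liver 4 was also the liver with the high *Cfb*.

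The casein and soy effects differed by the test of the difference itself for 7 genes, *Cpb2* (-0.57), *C8g* (-0.36), *C9* (-0.85), *C3* (0.50), *F5* (0.42), *Kng2* (0.30) and *Cfb* (0.46) on the log2 scale.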

How the results depend on the processing

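Of the 33 calls of single genes in the casein, soy and difference comparisons, none changed sign in any alternative. Under library totals the median log2 fold changes on casein were 0.115 over the 40 genes, 0.159 in complement and 0.075 in coagulation with its inhibitors, with all genes at 0.195. For Soy-10% against Soy-20% + SAA they were -0.064 over the 40 genes and -0.071 in coagulation with its inhibitors, and for the difference of effects 0.103. The GC covariate left 0 of 8 calls against Soy-20% + SAA (355 of all genes, in place of 2035) and 3 of 7 for the difference (546 in place of 1089). Leaving out Soy-20% + SAA livers 3 to 6 left 0 (317) and 2 (296), with 2 livers in that diet. One fit on 30 livers called 13 (3077) against Soy-20% + SAA, 5 (1793 in place of 1) for Soy-20% and 10 (2331 in place of 291) for Cas-20% against it. DESeq2 called 2 for Soy-10% against Soy-20% (217 in place of 103), 3 (873) for Soy-20% and 7 (1135) for Cas-20% against Soy-20% + SAA, where library totals called 2. Over 5 diets the covariate and the smaller set of livers called 3538 and 3433 genes in place of 5450, and library totals called 4661 on casein in place of 3008. The covariate and the smaller set called 5 and 3 genes for Cas-20% against Soy-20% + SAA and 0 each for Soy-20% against it.

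Leaving out 1 liver gave 16 to 19 calls on casein, 5 to 14 for Soy-10% against Soy-20% + SAA, 0 to 1 against Soy-20%, 0 to 5 for Soy-20% and 0 to 8 for Cas-20% against Soy-20% + SAA, and 5 to 11 for the difference. Over all genes the ranges were 2601 to 2888, 1219 to 3119, 50 to 146, 0 to 1587, 9 to 1817 and 719 to 1941. The highest counts against Soy-20% + SAA were those without its liver 1. Medians on casein ran from -0.085 to -0.042, in complement from -0.052 to 0.019 and in coagulation with its inhibitors from -0.137 to -0.060. Against Soy-20% + SAA they ran from -0.160 to -0.087, from -0.126 to -0.058 and from -0.184 to -0.125. They ran from -0.066 to -0.020 for Soy-10% against Soy-20%, from -0.092 to -0.021 and from -0.010 to 0.048 for the control comparisons, and from -0.050 to 0.009 for the difference. Leaving out single livers was not run for the test over 5 diets.

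Livers with the same replicate number did not deviate together, with correlations of -0.19 to 0.20, and share only a number. With the number as a replicate block, 16 genes of the list were called on casein, where 2656 of all genes were. Against Soy-20% + SAA there were 8 (2014 of all genes), for the difference 8 (1272) and over 5 diets 22 (5356). For Cas-20% against Soy-20% + SAA the block called 141 of all genes. Depth limits the precision of *Masp1*, with as few as 19 counts in a liver.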

Other observations

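Genes of the acute phase response, to which several of the 40 genes belong, moved in mixed directions under casein restriction. Of 16 acute phase proteins, 4 rose and 9 fell on Cas-5%, against 24.9% of all genes called. Under library totals 5 were called higher and 5 lower, against 38.6%. *Orm1*, an abundant orosomucoid with near copies in *Orm2* and *Orm3*, had 5551, 6201 and 7306 normalised counts on Cas-20% and 320.3, 438.8 and 1337 on Cas-5% (-3.38 ± 0.28, edgeR adjusted p = 2.6e-07). *Saa2*, a serum amyloid with a near copy in *Saa1*, fell from 110.1, 267.8 and 594.5 to 51.4, 82.8 and 101.8 (-1.90 ± 0.35, edgeR adjusted p = 0.00077). *Itih4*, an inter-alpha-inhibitor heavy chain, rose from 5191, 5423 and 5893 to 7011, 9124 and 10317 (0.71 ± 0.09, edgeR adjusted p = 1.3e-05), and *Cp*, ceruloplasmin, from 11603, 13170.5 and 14488 to 16439, 17823 and 19644 (0.49 ± 0.07, edgeR adjusted p = 0.00012). None of these 4 overlapped between the diets. *Orm3*, with at most 44.8 counts, fell by 3.01 ± 0.38 (edgeR adjusted p = 2.2e-05). Against Soy-20% + SAA, 1 of the 16 was called, *Serpina3n* at -0.65 ± 0.15 (edgeR adjusted p = 0.010), where 17.0% of all genes were, and none without livers 3 to 6. Against Soy-20% none was called by edgeR, where 0.866% of all genes were, with 5 at an unadjusted p under 0.05, as were 12.3% of all genes.

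Of 11 regulators of that response, 2 were called on casein, 18.2%, where 24.9% of all genes were, and 5 under library totals, where 38.6% were. *Il6ra*, the interleukin 6 receptor, rose from 245.8, 317.0 and 458.5 to 522.4, 590.2 and 720.9 on Cas-5% (0.90 ± 0.13, edgeR adjusted p = 8.3e-05) and *Il1r1* by 0.49 ± 0.11 (edgeR adjusted p = 0.0030). Against Soy-20% + SAA 4 rose and 1 fell, where 17.0% of all genes were called. *Cebpb* had the smallest adjusted p, at 0.92 ± 0.16 (edgeR adjusted p = 0.0026), and *Il1rap* was at 1.3 ± 0.32 (edgeR adjusted p = 0.016). Of the 5, *Il1rap* was the only one called without livers 3 to 6, where 2.54% of all genes were called. No log2 fold change of the list then exceeded 0.573. With the GC slope as a covariate *Cebpb* was the only one called, and the highest log2 fold change was 0.707. Of 15 liver transcription factors, 3 rose and 1 fell on Cas-5%, 26.7% of the list, where 24.9% of all genes were called. Under library totals 8 were called higher and 1 lower, and with the GC slope as a covariate 5 and 1. These settings called 38.6% and 23.1% of all genes. *Cebpa*, a C/EBP factor of hepatocytes, fell from 2301, 2461 and 2757 to 1571, 1649 and 1923 (-0.56 ± 0.07, edgeR adjusted p = 1.5e-05). *Hnf4a*, a nuclear receptor that defines hepatocytes, rose from 2563, 2832 and 2987 to 3041, 3393 and 3549 (0.27 ± 0.06, edgeR adjusted p = 0.0050). Neither overlapped. *Foxa1* and *Nr1i3* rose by 0.69 ± 0.18 and 0.79 ± 0.20 (edgeR adjusted p = 0.0078 and 0.0087). Against Soy-20% + SAA 2 were called higher and 2 lower, where 17.0% of all genes were called. None was called without livers 3 to 6, where 2.54% of all genes were. Against Soy-20% no regulator or transcription factor was called by edgeR, where 0.866% of all genes were. At an unadjusted p under 0.05 there was 1 of each, and 12.3% of all genes.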
